A study of Mus musculus with 12 samples.

Results

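The numbered zinc finger protein genes are the mouse genes whose symbol is Zfp followed only by digits, and 202 of them were measured here well enough to describe. They were chosen by a mean of at least 5 CPM (counts of a gene per 1000000 counts on all genes of a library) over the 3 control RNA libraries, leaving out Zfp42 and Zfp598. The tables of both assays held 331 such symbols among 23420 gene rows, and 129 lay below the threshold. Just inside the threshold were Zfp873 at 5.03, Zfp358 at 5.06 and Zfp563 at 5.10 CPM, and just outside it were Zfp605 at 4.77, Zfp316 at 4.69 and Zfp3 at 4.67 CPM. The control RNA values therefore chose the genes, and their levels are given as a description. Every one of the 202 passed the low-count filter of both assays.

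The cells were R1 mouse embryonic stem cells, an established line grown on gelatin in serum medium with leukaemia inhibitory factor. The knockdown cells had received 1 of 3 siRNAs against Krr1 for 48 h (called siKrr1 A, C and D), and the control cells carry the names siGFP, siNC and Lipo. No further allele or agent is given, and Lipo does not name an siRNA. Krr1 acts in building the small subunit of the ribosome. One share of a lysate went to RNA-seq and the other to ribosome profiling, in which the mRNA stretches covered by ribosomes (footprints) are sequenced, so that 12 libraries, 3 per group and assay, were compared. The protocol speaks of 3 different control siRNAs, and whether the Lipo cells received one is not clear from the labels. The 3 lysates of a group are its replicates, and separate cultures are not described. Each carries its own siRNA or control name, so the spread behind the p-values mixes these treatments with any culture or technical differences. These parts cannot be told apart.

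Most numbered Zfp genes encode proteins with arrays of C2H2 zinc fingers, each finger gripping a few bases of DNA, and a share of the fingers bind RNA or proteins instead. Many carry a KRAB domain, which recruits the corepressor Trim28 and through it the histone methyltransferase Setdb1, so that the bound DNA is packed with methylated histone H3. In mouse embryonic stem cells this system is known for keeping retroelements silent and for protecting the DNA methylation of imprinted regions. The genes arose largely by tandem duplication and lie in clusters. The deposited counts cover uniquely mapped alignments, so reads that fit several near-identical copies were left out. Closely related members may therefore be undercounted, and their counts are uncertain.

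A sequence feature that the choice of genes did not use directly was found at their start sites. Windows from 250 bases before to 50 bases after an annotated start were taken from RefSeq (GRCm38.p6, the build also named mm10) and were present for 165 of the 202 genes. Both strands were searched for the core of the Zfp143 element. Zfp143, itself encoded by a numbered Zfp gene, is an activator bound at many promoters. The core was found for 10 of the 165 genes (6.06%), against 315 of 27025 genes with a window (1.17%). The sites are shown because this was the clearest shared letter pattern, with the matched core in capitals (in either orientation), 10 bases of flank on each side and each sequence read along its gene.
Zfp1, chr8:111643408-111643438: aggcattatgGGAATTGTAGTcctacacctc
Zfp180, chr7:24081865-24081895: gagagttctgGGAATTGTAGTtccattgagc
Zfp219, chr14:52019699-52019729: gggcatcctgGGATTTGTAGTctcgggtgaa
Zfp358, chr8:3493103-3493133: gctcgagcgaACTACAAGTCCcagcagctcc
Zfp454, chr11:50887656-50887686: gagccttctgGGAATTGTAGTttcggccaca
Zfp58, chr13:67500532-67500562: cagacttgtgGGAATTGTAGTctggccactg
Zfp606, chr7:12478271-12478301: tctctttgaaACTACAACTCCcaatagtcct
Zfp691, chr4:119174354-119174384: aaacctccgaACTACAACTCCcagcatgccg
Zfp692, chr11:58307011-58307041: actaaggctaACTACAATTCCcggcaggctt
Zfp93, chr7:24270337-24270367: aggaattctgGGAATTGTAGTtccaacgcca
Zfp219, Zfp454, Zfp58 and Zfp691 are on the minus strand of the chromosome and the others on the plus strand. A pair of further patterns was searched in the same way. TGCCGC, which Zfp57 binds when it is methylated, was found for 34 of the 165 genes (20.6%), against 13.1% of genes with a window. The G-rich motif of Zfp281 was found for 7 of the 165 (4.24%), against 3.73%. A match is only a match of letters, tandem copies may share it by descent, and no test was made on the shares. The background genes were taken at any RNA level, while the 165 genes had been chosen at 5 CPM or more. No background of genes at that level was made, so the part of the threshold in the shares was not tested. None of the 10 genes with the Zfp143 core was called in either assay after Krr1 knockdown. Their RNA log2 fold changes ran from -0.16 in Zfp691 to 0.35 in Zfp358, with a median of 0.01.

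The knockdown was present in every siKrr1 library. Relative to the mean of the controls, siKrr1 A, C and D kept 21.7%, 37.2% and 43.3% of the RNA and 19.2%, 38.1% and 32.4% of the footprints of Krr1. Counts on genes per library were 31318772 to 39670139 in RNA and 21615934 to 28911254 in footprints. The labelled cell type was checked by its markers, and the 8 pluripotency markers summed to 5638 to 6277 CPM of RNA in siKrr1 cells and 6644 to 6721 CPM in controls, with no overlap. Of the 7 fibroblast markers, Col3a1 and Postn were at 0 in every RNA library, and the list summed to 4.47 to 9.50 CPM in siKrr1 cells and 7.79 to 8.80 CPM in controls. The 5 primitive endoderm markers summed to 3.45 to 4.16 CPM in siKrr1 cells and 3.40 to 4.33 CPM in controls, and the 6 two-cell-like markers to at most 0.319 CPM in siKrr1 cells and 0.185 CPM in controls. The 4 neural markers summed to 11.9 to 15.7 CPM in siKrr1 cells and 9.19 to 10.3 CPM in controls, and these ranges did not overlap either. Neurod1 averaged 5.03 CPM in siKrr1 cells and 1.88 CPM in controls, and Sox1 averaged 3.95 CPM in siKrr1 cells and 4.50 CPM in controls.

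Read counts of the numbered Zfp genes spanned a wide range. Their mean CPM in control RNA ran from 5.03 to 667 with a median of 19.5, and 17 genes reached 100 CPM. The mean count behind a control RNA value was 188 to 25196 with a median of 736, and behind a control footprint value 32 to 17932 with a median of 376. CPM is not corrected for transcript length, so these values rank read counts and not molecules. The 5 genes with the most reads held 23.8% of the class's control CPM. They were Zfp57 at 667, Zfp568 at 410, Zfp106 at 391, Zfp740 at 281 and Zfp207 at 255 CPM. Together the 202 genes took 0.824%, 0.816% and 0.855% of the RNA counts in siKrr1 A, C and D, against 0.859%, 0.818% and 0.847% in siGFP, siNC and Lipo. In footprints they took 0.699%, 0.704% and 0.702% in siKrr1 A, C and D, against 0.719%, 0.712% and 0.724% in siGFP, siNC and Lipo. The RNA shares of the groups overlapped, while every siKrr1 footprint share lay below every control share, and no test was made of either. Zfp57 alone averaged 515 CPM of footprints in siKrr1 cells and 721 CPM in controls. Shares without Zfp57 were not compared, so the lower footprint share is not shown to be a trait of the class. Of the 202 genes, 103 had a footprint log2 fold change above 0 and 99 below it.

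Across the class, RNA changed little after Krr1 knockdown, and the exceptions included the 2 members with the most reads. The fall of Zfp57 and the rise of Zfp568 were called, as were a fall of Zfp553 and rises of Zfp365, Zfp652 and Zfp689. That is 4 genes higher and 2 lower of 202 (2.97%), at an adjusted p under 0.05 in edgeR's quasi-likelihood test over 14038 genes. Of all genes tested, 4.8% were called, 2.69% higher and 2.11% lower, and of the 9989 genes that met the same threshold of 5 CPM 5.58% were called. The share of the class is thus no larger than the background. The median log2 fold change was -0.02, against -0.00 over all genes tested. No member passed a 2-fold change, and the range was -0.55 to 0.78. Changes within 0.2 on the log2 scale were measured for 160 members (79.2%), against 72.7% of genes with 5 CPM and 61.9% of all genes tested.

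**Figure D1:**
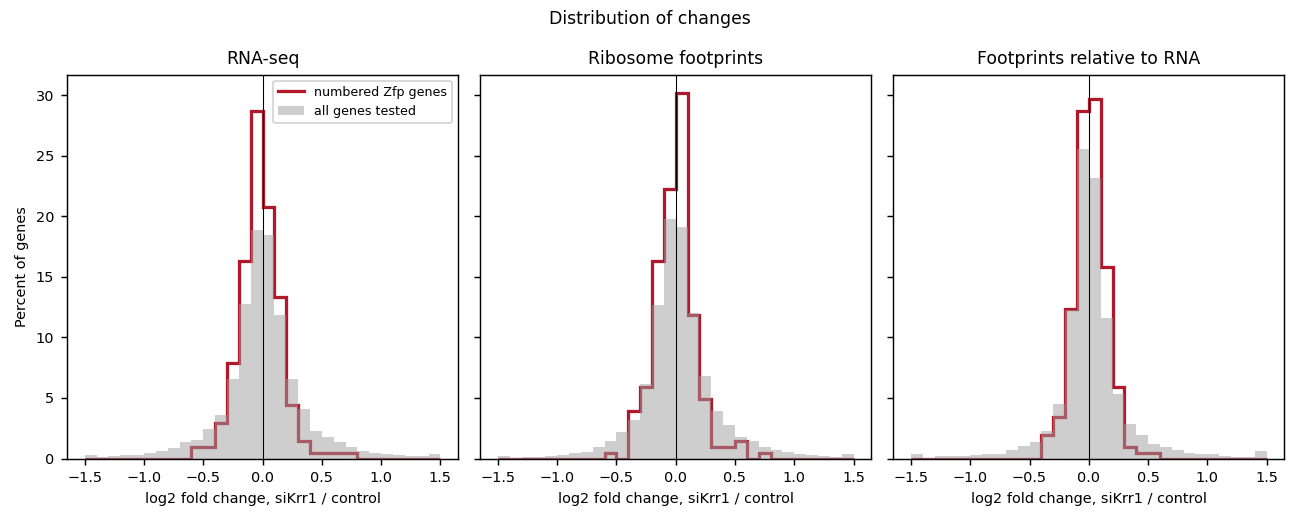
Share of genes (percent, y axis) by log2 fold change of siKrr1 over control (x axis, bins of 0.1) in RNA, in footprints and in footprints relative to RNA, for the 202 numbered Zfp genes (red line) and all genes tested (grey). Values beyond the axis are counted in its end bins; the class is centred near 0 in each panel, with medians of -0.02, 0.01 and 0.01.

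At an unadjusted p under 0.05, 9 members were higher and 16 lower in RNA, against backgrounds of 11.1% and 9.83%. The siKrr1 and control values did not overlap for 19 members that were higher (9.41%, background 15%) and 24 that were lower (11.9%, background 12.1%). DESeq2 called 5 higher and 5 lower, adding Zfp867 to the higher and Zfp296, Zfp516 and Zfp862 to the lower genes. Zfp867 is named from that call, after its values were seen. The counts depended on single libraries, and each fit without one leaves 2 libraries in a group. The RNA call of Zfp568 was lost without Lipo at a log2 fold change of 0.31, against 0.33 in the full fit. That of Zfp365 was lost without siKrr1 A at 0.58, against 0.78. Without Lipo 0 members were called higher and 1 lower (7 and 7 at an unadjusted p), and without siNC also 0 and 1 (8 and 14 at an unadjusted p). Leaving out siGFP or siKrr1 A gave 1 and 1, leaving out siKrr1 D gave 1 and 2, and leaving out siKrr1 C gave 6 and 5. RNA calls over all genes varied too, with 378 higher and 296 lower in the full fit and 667 and 530 in DESeq2. They were 63 and 51 without Lipo, 78 and 60 without siNC, and 759 and 539 without siKrr1 C.

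Zfp57, which binds methylated TGCCGC at imprinted regions and keeps their methylation, lies at chr17:37001163-37010729. Its RNA measured 481, 510 and 444 CPM in siKrr1 A, C and D, against 679, 652 and 670 CPM in siGFP, siNC and Lipo. Every siKrr1 value lay below every control value, and siKrr1 D was the lowest. The log2 fold change was -0.50 ± 0.08 (SE, n = 3 per group; edgeR adjusted p = 0.00881). Its footprints fell as well, with 524, 558 and 463 CPM in siKrr1 A, C and D, against 779, 669 and 714 CPM in siGFP, siNC and Lipo. The groups again did not overlap, and siKrr1 D was again the lowest. The footprint log2 fold change was -0.51 ± 0.08 (edgeR adjusted p = 0.00595). Zfp57 is the single member whose call held in both assays with each of the 6 lysates left out in turn, with an adjusted p of at most 0.0483 in RNA and 0.0412 in footprints (edgeR). Beside it, 4 of the 8 pluripotency markers were called lower in RNA, among them Nanog at -0.58 (edgeR adjusted p = 0.00758), where 2.11% of all genes tested were called lower. Pou5f1 at -0.13, Tdgf1 at -0.15, Sox2 at 0.03 and Lin28a at 0.04 were not called. Fewer cells with the RNAs that fell and less RNA per cell cannot be told apart in bulk samples. The part of either in the fall of Zfp57 was not tested.

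Zfp568, a KRAB protein that represses a placental promoter of Igf2, lies at chr7:29983955-30028282. Its RNA measured 532, 474 and 568 CPM in siKrr1 A, C and D, against 435, 401 and 395 CPM in siGFP, siNC and Lipo. All siKrr1 values lay above all control values, siKrr1 D highest. The log2 fold change was 0.33 ± 0.08 (edgeR adjusted p = 0.0313). Footprints measured 245, 222 and 238 CPM in siKrr1 A, C and D, against 206, 185 and 193 CPM in siGFP, siNC and Lipo, with no overlap and a log2 fold change of 0.24 ± 0.06 (edgeR adjusted p = 0.0439). Both calls were lost without Lipo, siNC, siGFP, siKrr1 A or siKrr1 D, with an adjusted p of up to 0.154 in RNA and 0.191 in footprints (edgeR), and kept without siKrr1 C.
The count ratio of the pair restates their opposite changes. In RNA there were 0.904, 1.07 and 0.782 counts of Zfp57 per count of Zfp568 in siKrr1 A, C and D, against 1.56, 1.63 and 1.70 in siGFP, siNC and Lipo. In footprints the ratio was 2.13, 2.51 and 1.94 in siKrr1 A, C and D, against 3.78, 3.62 and 3.71 in siGFP, siNC and Lipo. The groups did not overlap in either assay, which follows from the separation of each gene and adds no evidence.

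**Figure D2:**
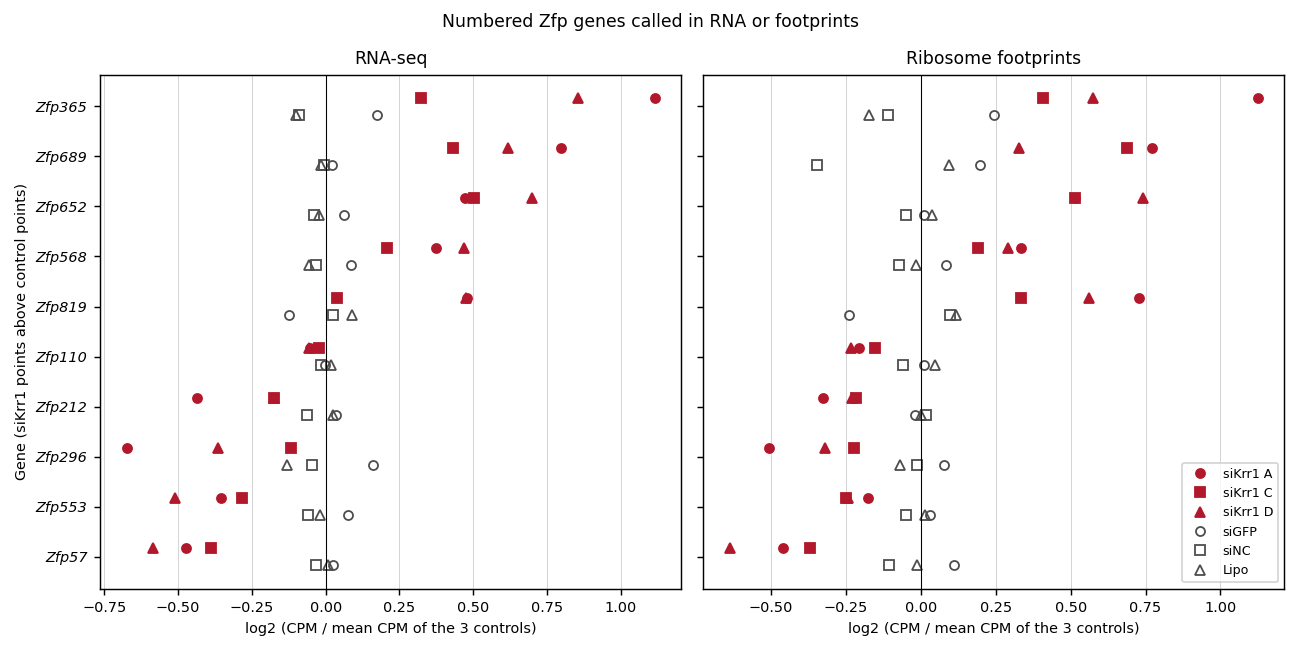
Log2 of CPM over the mean CPM of the 3 controls (x axis) in RNA and in footprints for the 10 numbered Zfp genes called in at least 1 assay (y axis), with 1 point per library (siKrr1 filled red and above, controls open and below). Zfp57 and Zfp553 separate to lower values in both assays and Zfp568, Zfp652, Zfp689 and Zfp365 to higher values in both, whereas the RNA values of Zfp296 and Zfp819 overlap between the groups.

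Zfp365, known in the brain for binding the scaffold protein DISC1, had the largest fold change of the class in both assays. Its RNA measured 113, 65.4 and 94.5 CPM in siKrr1 A, C and D, against 58.9, 49.1 and 48.8 CPM in siGFP, siNC and Lipo. The groups did not overlap, but siKrr1 C lay near the highest control, siGFP. The log2 fold change was 0.78 ± 0.16 (edgeR adjusted p = 0.0226). Footprints measured 24.8, 15.1 and 16.9 CPM in siKrr1 A, C and D, against 13.4, 10.5 and 10.1 CPM in siGFP, siNC and Lipo, with a log2 fold change of 0.71 ± 0.18 (edgeR adjusted p = 0.0468). Again siKrr1 A was the highest and no values overlapped. Both calls were lost without Lipo, siNC, siGFP, siKrr1 A or siKrr1 D, with an adjusted p of up to 0.0958 in RNA and 0.195 in footprints (edgeR).

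Zfp652, the mouse counterpart of a transcriptional repressor described in human breast cells, rose in both assays. RNA measured 31.0, 31.7 and 36.4 CPM in siKrr1 A, C and D, against 23.4, 21.8 and 22.0 CPM in siGFP, siNC and Lipo. The log2 fold change was 0.54 ± 0.09 (edgeR adjusted p = 0.0107). Footprints measured 15.9, 15.9 and 18.6 CPM in siKrr1 A, C and D, against 11.2, 10.7 and 11.4 CPM in siGFP, siNC and Lipo. The groups were separate in both assays and siKrr1 D was the highest, with a footprint log2 fold change of 0.57 ± 0.11 (edgeR adjusted p = 0.0119). The RNA call was lost without Lipo or siNC (edgeR adjusted p up to 0.066) and the footprint call without Lipo, siGFP or siNC (up to 0.0709).

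Zfp553 and Zfp689 lie in the same cluster on chromosome 7 and went opposite ways. Zfp553 (chr7:127233061-127238197) had 118, 124 and 106 CPM of RNA in siKrr1 A, C and D, against 159, 144 and 149 CPM in siGFP, siNC and Lipo. Its footprints were 65.8, 62.6 and 62.8 CPM in siKrr1 A, C and D, against 76.0, 71.9 and 75.1 CPM in siGFP, siNC and Lipo. All siKrr1 values lay below all controls in both assays. The log2 fold changes were -0.40 ± 0.08 in RNA (edgeR adjusted p = 0.0258) and -0.25 ± 0.06 in footprints (edgeR adjusted p = 0.0423). Zfp689 (chr7:127442136-127449158) had 11.0, 8.57 and 9.75 CPM of RNA in siKrr1 A, C and D, against 6.46, 6.33 and 6.29 CPM in siGFP, siNC and Lipo. The controls lay close together and the siKrr1 values well above them, and the log2 fold change was 0.60 ± 0.14 (edgeR adjusted p = 0.0329). Its footprints were 11.0, 10.4 and 8.09 CPM in siKrr1 A, C and D, against 7.39, 5.07 and 6.87 CPM in siGFP, siNC and Lipo, with a log2 fold change of 0.58 ± 0.18 that was not called (edgeR adjusted p = 0.0815). The RNA call of Zfp553 was lost without Lipo, siNC, siGFP or siKrr1 A (up to 0.114) and its footprint call without Lipo, siNC, siGFP, siKrr1 C or siKrr1 D (up to 0.179). The RNA call of Zfp689 was lost without Lipo, siNC, siGFP, siKrr1 A or siKrr1 D (edgeR adjusted p up to 0.135).

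In footprints, 4 members were called higher and 5 lower of 202 (4.46%), against 6.07% of 13287 genes tested (3.39% higher and 2.68% lower) and 7.01% of the genes with 5 CPM. Zfp57, Zfp553, Zfp568, Zfp365 and Zfp652, described above, were among them, and Zfp819 rose while Zfp296, Zfp212 and Zfp110 fell. The median log2 fold change was 0.01, as over all genes tested, and the range was -0.51 to 0.71. At an unadjusted p under 0.05, 12 members were higher and 15 lower, against backgrounds of 12% and 10.5%. The groups did not overlap for 26 higher members (12.9%, background 17.7%) and 19 lower ones (9.41%, background 10.6%). DESeq2 called 5 higher and 6 lower, adding Zfp689 and Zfp414, the second of which is named after its values were seen. Without Lipo, siNC or siGFP 0 members were called higher and 1 lower (13 and 9, 9 and 9, and 9 and 11 at an unadjusted p). Leaving out siKrr1 A gave 2 and 5, leaving out siKrr1 D gave 1 and 2, and leaving out siKrr1 C gave 6 and 5. Footprint calls over all genes varied too, with 450 higher and 356 lower in the full fit and 621 and 520 in DESeq2. They were 67 and 64 without Lipo, and 791 and 546 without siKrr1 C.

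Zfp296, a factor of pluripotent cells known to aid reprogramming, had 89.7, 109 and 102 CPM of footprints in siKrr1 A, C and D, against 134, 126 and 121 CPM in siGFP, siNC and Lipo. The groups did not overlap, and the log2 fold change was -0.37 ± 0.08 (edgeR adjusted p = 0.0181). Its RNA had 52.9, 77.8 and 65.7 CPM in siKrr1 A, C and D, against 94.5, 81.7 and 77.2 CPM in siGFP, siNC and Lipo. Here siKrr1 C overlapped the lowest control, and a change of -0.39 ± 0.13 was not called (edgeR adjusted p = 0.111). The footprint call was lost without Lipo, siNC or siGFP (edgeR adjusted p up to 0.0911).

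Zfp819, a KRAB protein linked to the silencing of endogenous retroviruses in mouse stem cells, had 25.8, 19.6 and 22.9 CPM of footprints in siKrr1 A, C and D, against 13.2, 16.6 and 16.9 CPM in siGFP, siNC and Lipo. All siKrr1 values were above all controls, and the log2 fold change was 0.52 ± 0.13 (edgeR adjusted p = 0.0386). In RNA it had 45.8, 33.7 and 45.6 CPM in siKrr1 A, C and D, against 30.1, 33.4 and 34.9 CPM in siGFP, siNC and Lipo. There siKrr1 C lay within the control range, and the change of 0.32 ± 0.12 was not called (edgeR adjusted p = 0.147). Zfp212 had 35.3, 38.1 and 37.8 CPM of footprints in siKrr1 A, C and D, against 43.7, 44.9 and 44.3 CPM in siGFP, siNC and Lipo, and a log2 fold change of -0.29 ± 0.07 (edgeR adjusted p = 0.0352). Zfp110, which binds the neurotrophin receptor p75, had 123, 128 and 121 CPM of footprints in siKrr1 A, C and D, against 143, 136 and 147 CPM in siGFP, siNC and Lipo, and a log2 fold change of -0.23 ± 0.06 (edgeR adjusted p = 0.0439). Neither gene's footprint values overlapped between groups. In RNA, Zfp212 measured -0.28 (edgeR adjusted p = 0.125) and Zfp110 -0.06 (0.64). The footprint calls of Zfp819, Zfp212 and Zfp110 were each lost without Lipo, siNC, siGFP, siKrr1 A or siKrr1 D, with an adjusted p of up to 0.141, 0.149 and 0.207 (edgeR).

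**Figure D3:**
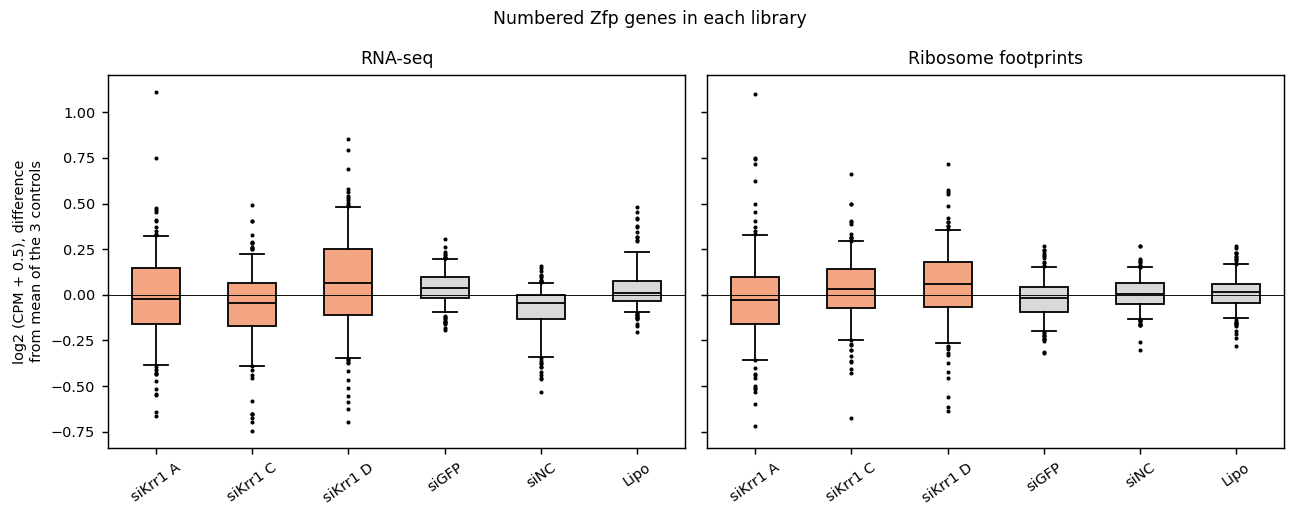
Difference of log2 (CPM + 0.5) from the mean of the 3 controls (y axis) of the 202 numbered Zfp genes in each library (x axis, siKrr1 orange, controls grey), in RNA and in footprints. Each control is part of the mean it is compared with. Boxes give quartiles, lines medians, whiskers the 5th to 95th percentile and points the genes beyond them; the medians lie on both sides of 0 in siKrr1 (-0.04 to 0.07) and in control libraries (-0.05 to 0.04).

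The number of members away from the controls differed between the siKrr1 lysates. On the log2 (CPM + 0.5) scale, each library was set against the mean of the controls. A control is part of that mean and lies nearer to it by construction, so the control counts are no equal baseline. In siGFP, siNC and Lipo, RNA lay over 0.5 from the mean for 0, 1 and 0 members. In siKrr1 A, C and D it did so for 7, 7 and 14 members. That is 3.47%, 3.47% and 6.93% of the class, against 9.0%, 2.79% and 8.82% of genes with 5 CPM in siKrr1 A, C and D. In footprints it was 5.45%, 0.99% and 3.47% of the class, against 9.56%, 3.18% and 7.35% of genes with 5 CPM. The median of the class lay at -0.02, -0.04 and 0.07 in siKrr1 A, C and D in RNA, against 0.04, -0.05 and 0.01 in siGFP, siNC and Lipo. In footprints it lay at -0.03, 0.03 and 0.06 in siKrr1 A, C and D, against -0.02, 0.00 and 0.02 in siGFP, siNC and Lipo. In RNA both groups held medians of both signs.

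Footprints relative to RNA were tested as the interaction of assay and condition over the 12 libraries. This fit did not use the pairing of the assays by lysate. For the class, 0 members were called in either direction, and 0 of 14236 genes were called in all (0%). DESeq2 also called 0 members, and 2 higher and 0 lower over all genes. A fit with the lysate as a block, which uses the pairing, called 0 members. Over all genes it called 5 higher and 1 lower. At an unadjusted p under 0.05, 3 members were higher and 0 lower in edgeR, against 2.37% of all genes (1.59% higher and 0.78% lower). With the lysate as a block these counts were 6 and 6, and without Lipo or without siGFP they were 0 and 0. The median log2 change was 0.01 and the range -0.37 to 0.58. On simulated counts the edgeR test without the block recovered 24% of changes of 0.5 and 93% of changes of 1 on the log2 scale. The RNA test recovered 68% and 100%. Smaller changes of footprints relative to RNA would thus largely be missed. The simulation changed only well-counted genes, with the same spread for every gene and no shared lysates. Its rates may therefore overstate recovery for members with few counts.
Of the higher members, Zfp341 measured 0.58 ± 0.24 and Zfp862 0.47 ± 0.20, both with an adjusted p of 0.9999 in edgeR. Zfp341 had 3.70, 3.93 and 3.18 CPM of RNA in siKrr1 A, C and D, against 6.04, 4.08 and 5.59 CPM in siGFP, siNC and Lipo. Its footprints were 6.15, 7.38 and 6.74 CPM in siKrr1 A, C and D, against 5.78, 6.81 and 6.91 CPM in siGFP, siNC and Lipo. Only the RNA values were separate between the groups. All siKrr1 RNA values lay under the 5 CPM that chose the genes and the control mean just above it, so both the RNA difference and the ratio rest on values used in the choice. Zfp862 behaved alike, with RNA of 7.66, 9.48 and 7.47 CPM in siKrr1 A, C and D, against 12.2, 10.5 and 10.9 CPM in siGFP, siNC and Lipo. Its footprints were 5.88, 6.37 and 6.61 CPM in siKrr1 A, C and D, against 6.18, 6.99 and 5.18 CPM in siGFP, siNC and Lipo, and overlapped. RefSeq lists the locus as the transcribed pseudogene Zfp862-ps. The smallest p-values among the lower members belonged to Zfp949 at -0.33 and Zfp358 at -0.37.

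The class differed far more between its own genes in footprints per RNA than between siKrr1 and control cells. The log2 ratio of footprint CPM to RNA CPM in the control lysates had a median of -0.34, quartiles of -0.92 and 0.33 and a range of -4.45 to 2.35. Over 9985 genes with 5 CPM the median was -0.25. The SD between members was 0.966, while the median SD of a member over the 3 control lysates was 0.138. Changes between siKrr1 and control cells ranged from -0.37 to 0.58, as given above. Over the genes with 5 CPM the 2 SDs were 1.09 and 0.0943, so the contrast is not particular to the class. A ratio below -1 was found for 46 members (22.8%, against 20.8% of genes with 5 CPM), and one above 1 for 9 members (4.46%, against 8.13%). The ratio compares reads on the whole transcript with reads on its translated part, so a gene with long untranslated stretches has a low value whatever its translation, and the denominator was used to choose the genes.

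**Figure D4:**
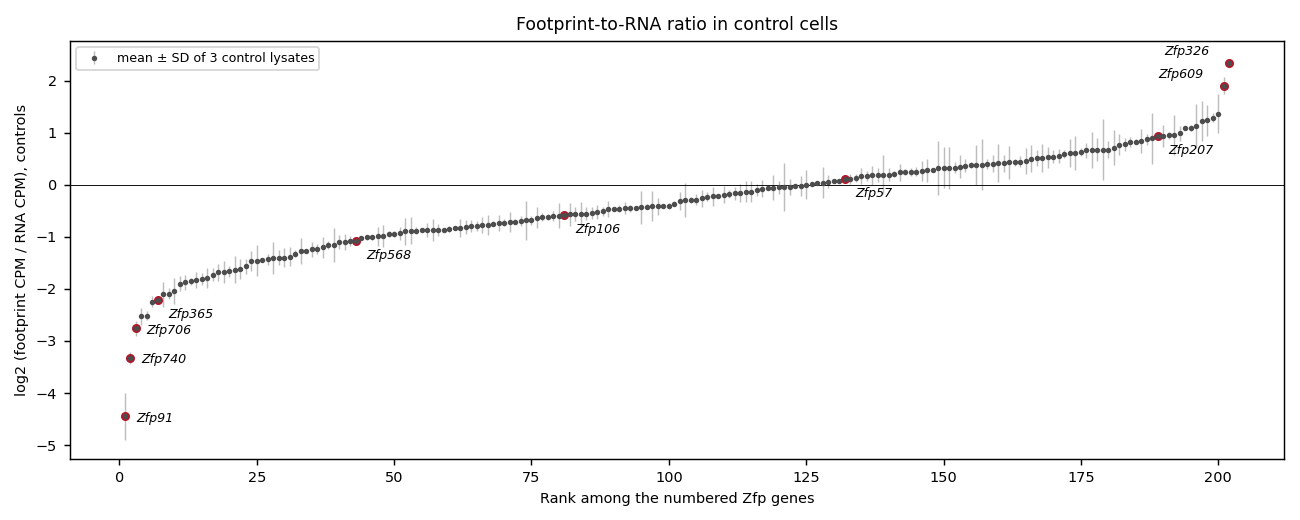
Log2 ratio of footprint CPM to RNA CPM in control cells (y axis) for the 202 numbered Zfp genes in order of rank (x axis), as the mean and SD of 3 lysates. Zfp91, Zfp740 and Zfp706 lie lowest, at -4.45, -3.33 and -2.76, and Zfp609 and Zfp326 highest, at 1.91 and 2.35.

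The extremes of this ratio were picked after their values were seen. Zfp326, part of a complex that joins RNA polymerase II to splicing, had a log2 ratio of 2.64 ± 0.12 in siKrr1 cells and 2.35 ± 0.06 in controls (SD, n = 3 each). Its change in footprints relative to RNA was 0.27 ± 0.14 (SE) and was not called (edgeR adjusted p = 0.9999). Zfp609, which works with the cohesin loader in neural progenitors, had a log2 ratio of 1.97 in siKrr1 cells and 1.91 ± 0.16 in controls. At the low end Zfp740 had -3.32 in siKrr1 cells and -3.33 ± 0.11 in controls, and Zfp365 had -2.27 in siKrr1 cells and -2.21 ± 0.07 in controls. Zfp91, an E3 ubiquitin ligase, was lowest at -4.45 ± 0.45 in controls, resting on a mean of only 32 footprint counts. The RefSeq models of Zfp91 and Zfp740 overlap the protein-coding genes Lpxn and Csad, and 28 members overlap such a gene, so reads in the shared stretch may have been assigned or dropped by the authors' counting.

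By known role, the members that guard imprints and silence retroelements held called changes in both directions. Of 8 such KRAB factors, 7 were tested. In RNA Zfp568 rose and Zfp57 fell, and in footprints Zfp568 and Zfp819 rose and Zfp57 fell, so its calls went both ways. That is 2 and 3 of 7, where 4.8% and 6.07% of all genes tested were called, and the list was chosen with these changes known. Zfp445, the second known guardian of imprints, had 36.6, 28.7 and 41.5 CPM of RNA in siKrr1 A, C and D, against 43.4, 33.5 and 42.8 CPM in siGFP, siNC and Lipo. Those values overlapped and were not called (-0.19 ± 0.13, edgeR adjusted p = 0.466), and its footprints measured -0.13 ± 0.06 (edgeR adjusted p = 0.264). Zfp809, which silences murine leukaemia viruses through their primer binding site, measured 0.16 in RNA and 0.18 in footprints on the log2 scale (edgeR adjusted p = 0.696 and 0.33). Zfp932 and Zfp708 were below 5 CPM, so not among the 202 genes, and were not called, and Zfp951, also below, was too low to test.

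Factors of stem cells and chromatin numbered 9, all tested. In RNA 1 was called (11.1%, against 4.8% of all genes tested), the fall of Zfp57. In footprints 2 were called (22.2%, against 6.07%), the falls of Zfp57 and Zfp296. Zfp57 is also in the list of KRAB factors above, and this list too was chosen with these changes known. Zfp281, a repressor that acts on Nanog in mouse stem cells, measured -0.12 ± 0.10 in RNA and -0.07 ± 0.05 in footprints. Zfp207, which binds spindle microtubules and the checkpoint protein Bub3, measured -0.05 in RNA and -0.04 in footprints at 251 ± 22 CPM of RNA in siKrr1 cells and 255 ± 14 CPM in controls (SD, n = 3 each). Zfp143, the factor whose core pattern is printed above, measured 0.08 ± 0.09 in RNA and -0.03 ± 0.08 in footprints. Zfp706, known in mouse stem cells for a role in leaving self-renewal, measured -0.16 in RNA and -0.00 in footprints, and Zfp462, Zfp217 and Zfp219 were not called either.

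Of 8 proteins that bind RNA or act on ribosomes, 7 were tested and 0 were called in either direction in either assay. At an unadjusted p under 0.05 there were 1 higher and 0 lower in RNA, 1 higher and 1 lower in footprints, and DESeq2 called 0. Of all genes tested, 11.1% were higher and 9.83% lower in RNA at an unadjusted p, and 12% and 10.5% in footprints. Zfp622 and Zfp593 are the counterparts of yeast proteins that join the large ribosomal subunit late in its assembly. Zfp622 had 163, 157 and 139 CPM of RNA in siKrr1 A, C and D, against 165, 174 and 171 CPM in siGFP, siNC and Lipo, separate groups with a log2 fold change of -0.17 ± 0.08 that was not called (edgeR adjusted p = 0.276). Its footprints were 165, 160 and 163 CPM in siKrr1 A, C and D, against 177, 183 and 176 CPM in siGFP, siNC and Lipo, also separate and not called (-0.16 ± 0.05, edgeR adjusted p = 0.0929). Zfp593 measured 0.09 in RNA and 0.18 in footprints, and Zfp106, an RNA-binding protein of neurons and muscle, -0.12 in RNA and -0.10 in footprints. Zfp36, which binds AU-rich elements and speeds mRNA decay, lay below 5 CPM in controls and measured 0.50 ± 0.18 in RNA (edgeR adjusted p = 0.136).

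Of 11 genes of development and signalling, 8 were tested in RNA and 9 in footprints, and 0 were called in either assay. At an unadjusted p under 0.05 there were 1 higher and 1 lower in RNA and 0 higher and 2 lower in footprints, and DESeq2 called Zfp516 lower in RNA. The unadjusted shares of all genes tested were 11.1% higher and 9.83% lower in RNA, and 12% and 10.5% in footprints. Zfp516, a factor of brown fat cells, had 22.7, 22.3 and 21.9 CPM of RNA in siKrr1 A, C and D, against 33.1, 25.5 and 26.1 CPM in siGFP, siNC and Lipo. The groups were separate, with -0.36 ± 0.11 in RNA (edgeR adjusted p = 0.0943) and -0.36 ± 0.11 in footprints (edgeR adjusted p = 0.0894). Zfp423, a cofactor of BMP-activated Smads, measured -0.07 in RNA, and Zfp451, a SUMO ligase, 0.17.

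The machinery on which KRAB members depend was given by 20 genes, all tested. In edgeR 0 were called in either assay. At an unadjusted p under 0.05 there were 0 higher and 3 lower in RNA and 1 higher and 3 lower in footprints. The unadjusted shares of all genes tested were 11.1% higher and 9.83% lower in RNA, and 12% and 10.5% in footprints. DESeq2 called Sumo2 lower in RNA and Trim28 and Uhrf1 lower in footprints. Trim28, the corepressor itself, had 3683, 3667 and 3107 CPM of RNA in siKrr1 A, C and D, against 3929, 3706 and 3729 CPM in siGFP, siNC and Lipo. The groups were separate, and the log2 fold change was -0.14 ± 0.09 (edgeR adjusted p = 0.45). Its footprints measured -0.24 ± 0.06 (edgeR adjusted p = 0.052), a change that DESeq2 called (adjusted p = 0.0193). Setdb1 measured -0.18 in RNA and -0.19 in footprints, and Uhrf1, which guides maintenance of DNA methylation, -0.21 in RNA and -0.23 in footprints (edgeR adjusted p = 0.2 and 0.0505), of which DESeq2 called the footprint change (adjusted p = 0.0217).

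By position, 56 members (27.7%) lie on chromosome 7, 19 on chromosome 17 and 16 on chromosome 8. Numbered genes no more than 200 kb apart were joined, and 64 members lay in clusters of at least 5 numbered genes and 138 outside them. In RNA 2 of these 64 were called higher and 1 lower, and of the 138 other members also 2 and 1, against 4.8% of all genes tested. In footprints 1 of the 64 was called higher and 3 lower, and of the 138 others 3 and 2, against 6.07% of all genes tested. The cluster at chr7:29768552-30169775 held 15 numbered genes, 11 of them members, with a median RNA log2 fold change of 0.06 and a range of -0.20 to 0.33. Zfp568 lies in it and was its only call. The cluster at chr7:127233061-127615785 held 8 numbered genes, 6 of them members, and ranged from -0.40 in Zfp553 to 0.60 in Zfp689. A cluster of 7 members at chr17:32765496-33110707 held no call and ranged from -0.12 to 0.19.

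**Figure D5:**
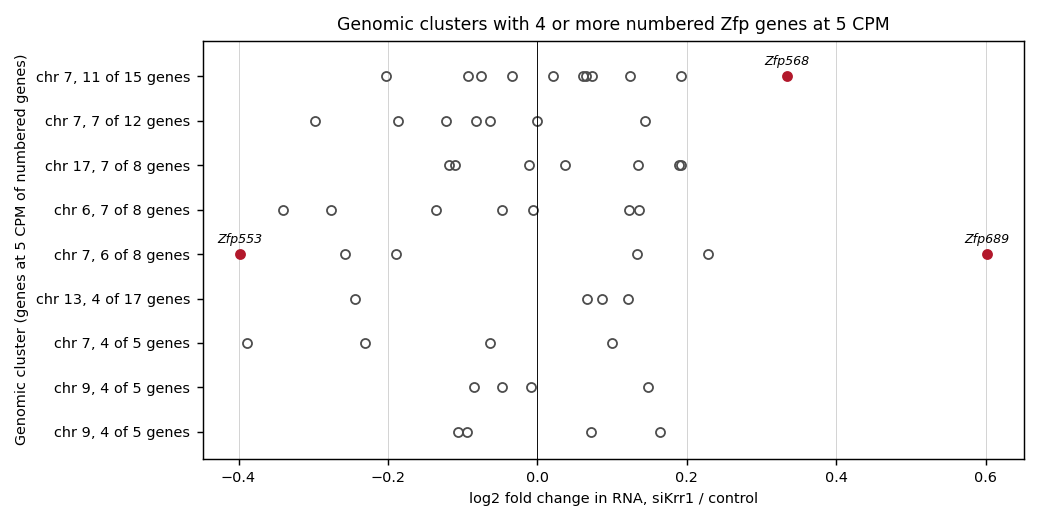
RNA log2 fold change of siKrr1 over control (x axis) of the members in each genomic cluster with at least 4 of them (y axis), with red filled points for called genes and open points for the others. Members of a cluster lie on both sides of 0, and the chromosome 7 cluster with Zfp553 and Zfp689 holds a called change in each direction.

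Other families with zinc fingers and at least 5 CPM gave their own counts. Of 36 Zbtb genes, edgeR called 0 higher and 1 lower in RNA (1 and 6 at an unadjusted p; DESeq2 0 and 3), and 0 in footprints (1 and 7 at an unadjusted p; DESeq2 0 and 1). Of 16 Zscan or Zkscan genes, 0 were called by edgeR or DESeq2 in either assay, also at an unadjusted p. Of 13 Klf genes 1 was called higher and 3 lower in RNA (30.8%, against 4.8% of all genes), and 1 and 4 in footprints (38.5%, against 6.07%). Of 11 Zc3h genes, 1 was called lower in each assay, Zc3h12a. At an unadjusted p the shares of all genes tested were 11.1% higher and 9.83% lower in RNA, and 12% and 10.5% in footprints. No test was made of the difference between families. Among the 129 numbered Zfp genes below the threshold, 106 were tested in RNA and 102 in footprints, and edgeR called 0 in either. At an unadjusted p there were 6 higher and 4 lower in RNA and 3 and 0 in footprints, and DESeq2 called 0 in RNA and 1 higher in footprints.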

How the data were processed

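RNA-seq and ribosome footprint libraries of 3 siKrr1 and 3 control lysates were used. Per the submitters' processing notes, the authors aligned reads with STAR to mm10 and counted them with HTSeq, and the deposited values are raw counts per gene symbol. For versions, annotation and strand setting: not given in the sources used here. Knockdown columns carry the letters A, C and D, which were assigned to the group but not to single titles.

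Genes passing filterByExpr were tested with edgeR 4.0.16 (quasi-likelihood, TMM factors, R 4.3.3), with Benjamini-Hochberg adjustment over all genes and calls under 0.05. DESeq2 1.42.0, RLE factors, no filter, other member thresholds and each library left out were alternatives. CPM used counts on genes only. Counts limit precision: they were checked for duplicated libraries (chi-square per degree of freedom at least 4.03), and the tests were tried on simulated counts. Lysates were divided between the assays per the labels, and over 6117 genes deviations correlated within a lysate at 0.265 to 0.713, and at most 0.00356 with other lysates.

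Members and lists were chosen with earlier results of these data known. Genes named are those called without overlap between groups (or the 2 with the smallest p per direction), the 5 with the most reads, 3 on each side of the threshold, and the lists by role; any others are said to be picked afterwards. RefSeq matched 197 members by symbol and 5 by synonym.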

Additional observations from a re-analysis of the deposited data

How the results depend on the processing

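Calls among the numbered Zfp genes depended on single libraries, as did the calls over all genes. Leaving out each library gave 0 to 6 members higher and 1 to 5 lower in RNA, and 0 to 6 higher and 1 to 5 lower in footprints. DESeq2 called 5 lower in RNA, against 2. No called member changed sign in any fit. The lysates pair the assays, and a fit of footprints relative to RNA with the lysate as a block called 0 members higher and 0 lower, as without it, and it called 5 higher and 1 lower over all genes, against 0 and 0. The median footprint-to-RNA ratio in controls, -0.34, was -0.066 for the 285 genes with at least 1 CPM and -0.57 for the 99 with at least 20 CPM. The threshold is set on its denominator, and the cause was not tested. RLE factors, no filter and a mean over all 6 RNA libraries kept each count within 1.5 times. A count of KRAB boxes was not run. Without one library, 2 samples remain in an arm, and depth limits the 9 members with under 100 footprint counts.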
